A study of Mus musculus with 13 samples.

Results

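The gaps described here are the stretches of 1000 to 9000 bp that separate 2 neighbouring H3K9me3 regions on mouse autosomes 1 to 19. Touching or overlapping peaks of the 4 H3K9me3 lists were merged, and a merged region was kept where a peak of every one of the 4 lists overlapped it (a 4-list region). The 19 autosomes held 10588 such regions and 10569 gaps between neighbours, and 1051 of these gaps (9.94%) had a length within the limits. The number depends on replicate 1: the other 3 lists alone gave 3770 such gaps. The gaps were therefore chosen on the H3K9me3 lists themselves, so their lengths, flanks and H3K9me3 content are given as a description without tests. H3K27me3 did not enter the choice and was tested.

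Chromatin was taken from J1 mouse embryonic stem (ES) cells that carry an inducible knockout of Setdb1, grown without feeder cells in serum and leukaemia inhibitory factor. All libraries come from cells with this inducible allele. The groups are H3K9me3 in untreated cells (4 lists), H3K27me3 in untreated cells (2 lists) and H3K27me3 in cells given 2.5 µM tamoxifen to ablate Setdb1 (2 lists), with dimethyl sulfoxide named as the solvent control. The loss of Setdb1 could not be checked in peak lists. The labels do not say whether replicates are separate cultures, so p-values measure only the spread between these libraries. H3K9me3 replicate 4 carries the antibody entry none and was kept by its title. H3K9me3 after tamoxifen and the 5 input libraries were not analysed here.

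Setdb1 is a histone methyltransferase that places methyl groups on lysine 9 of histone H3, and in ES cells it is best known for silencing endogenous retroviruses and other retroelements. H3K9me3 often spreads from such an element into the unique sequence on both of its sides. Reads from within repeated sequence cannot be placed at 1 position, so a peak caller can see a marked element as a pair of peaks at its edges with an empty stretch between them. H3K27me3 is placed by the Polycomb repressive complex PRC2, mainly over CpG-rich promoters of developmental genes, and mostly lies apart from H3K9me3. No genome, repeat annotation or gene annotation of build mm9, on which the positions stand, was used here, so what sequence the gaps hold was not tested and no sequence is shown.

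The 8 lists held between 7041 and 42725 peaks. Among the H3K9me3 lists, replicate 1 had the fewest peaks (18037) and the widest (median 1896 bp), while replicates 2 to 4 had 29410, 42725 and 33743 peaks with medians of 806, 830 and 827 bp. Replicate 1 was made with MACS2 2.0.10 and replicates 2 to 4 with MACS2 2.1.0, so the library and the version of the peak caller cannot be told apart. The lists give positions without scores or read counts, so the depth behind each peak is unknown.

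Short gaps outnumbered what regions spread at random would give. The median length of the 1051 gaps was 4383 bp (quartiles 2445 and 6552 bp) and they covered 4.83 Mb, whereas the median of all 10569 autosomal gaps was 94633 bp. An exponential formula with the mean gap of each chromosome, the expectation for random spacing, gave 379 gaps of 1 to 9 kb, so that the observed number was 2.77 times as high. With the mean gap taken in windows of 5 Mb, which allows for dense and sparse parts of a chromosome, the formula gave 483 gaps and the ratio was 2.18. Regions thus lay in close neighbourhood more often than either form of the formula gives.

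The excess over random spacing fell from class to class within 1 to 9 kb, with no rise at 5 to 7 kb. There were 358 gaps of 1 to 3 kb, 3.73 times the 96.0 of the per-chromosome formula. The class of 3 to 5 kb held 244 gaps, 2.56 times the formula's 95.1. The class of 5 to 7 kb held 237 gaps, 2.51 times the 94.2 given by the formula. A further 212 gaps of 7 to 9 kb stood against 93.4, a ratio of 2.27. Beyond the upper limit, 701 gaps of 9 to 17 kb stood against 365, a ratio of 1.92. In classes of 2 kb this ratio was 1.99, 1.77, 1.85 and 2.08, so it did not go on falling there. The share of gaps in the 5 to 7 kb class was 22.5% (95% exact binomial interval 20.1 to 25.2), and its number was 1.04 times the mean of the classes on both sides of it. In steps of 500 bp from 5 kb to 9 kb the numbers were 42, 73, 66, 56, 48, 64, 42 and 58. The interval of the 5 to 7 kb share therefore includes the value that a smooth decline between its neighbours would have.

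**Figure D1:**
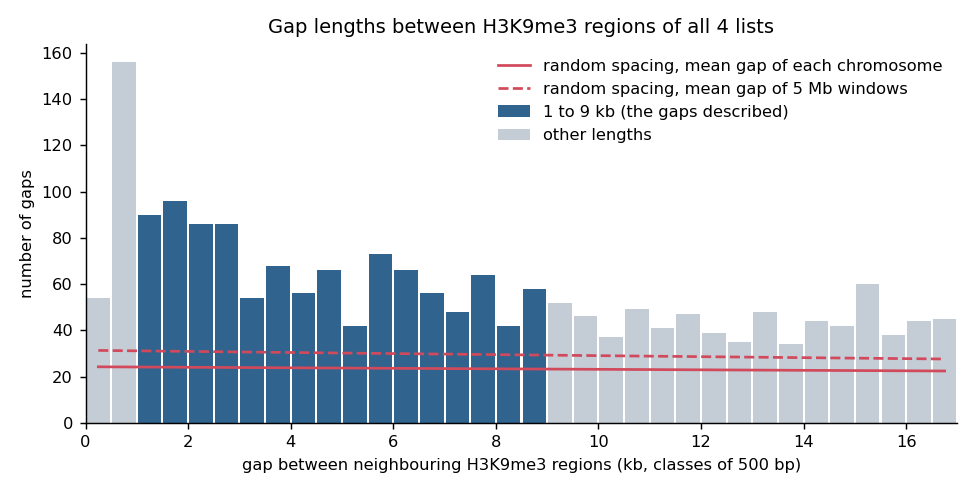
Number of gaps between neighbouring 4-list H3K9me3 regions on the autosomes (vertical axis) in length classes of 500 bp from 0 to 17 kb (horizontal axis). Blue bars are the 1051 gaps described, grey bars are gaps of other lengths, and the red lines are random spacing from the mean gap of each chromosome (solid) or of 5 Mb windows (dashed). Bars lie above both lines in every class shown and the 237 gaps of 5 to 7 kb are close to the 244 and 212 of the classes beside them.

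The shortest of the 1051 gaps was chr15:27206822-27207822 (1001 bp), between regions of 4451 and 2472 bp. The longest was chr13:50816732-50825725 (8994 bp), between regions of 7470 and 5562 bp. Just outside the limits lay chr12:105546585-105547582 (998 bp) and chr17:64100357-64109358 (9002 bp). The gaps were found on each of the 19 autosomes, and as a share of the chromosome's gaps they ranged from 32 of 561 on chromosome 2 (5.70%) to 79 of 583 on chromosome 7 (13.6%). Chromosome 1 held the most, 94 of 868. Each autosome had more gaps of 1 to 9 kb than its own formula value, from 2.08 times on chromosome 8 to 4.35 times on chromosome 7. On the X chromosome, outside the rule, 217 regions gave 8 gaps of this length.

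A gap of the merged regions is at most as long as the shortest of 4 readings, because any list can extend either flank into it. Its 2 borders can come from different lists, and replicates 1 to 4 set both borders in only 111, 31, 159 and 53 gaps. Measured in each list alone, between the last peak of the left region and the first peak of the right one, the median distance was 5713, 5952, 5233 and 5682 bp in replicates 1 to 4. These distances exceeded the merged gap by a median of 918, 1126, 484 and 890 bp. Replicate 3, the list with the most peaks, set 36.4% of the left borders and 36.9% of the right ones. For a single gap the 4 lists differed by a median of 1493 bp between the shortest and the longest distance, and only 65 gaps agreed within 500 bp. Across the 1051 gaps the distances of replicates 2 to 4 had a Pearson's r of 0.882 to 0.901 with each other, and of 0.726 to 0.746 with replicate 1. These are descriptions across gaps that all share the choice of regions. The gap chr10:82850564-82855523 shows how far the readings can differ, with 15254, 4960, 11482 and 8293 bp in replicates 1 to 4 for a merged gap of 4960 bp.

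A class of gaps near 7 kb appeared when replicate 1 was left out of the choice of regions. Regions held by replicates 2, 3 and 4 left 3770 gaps of 1 to 9 kb. Of these, 334 measured 6.5 to 7.0 kb, against 225 of 6.0 to 6.5 kb and 154 of 7.0 to 7.5 kb, a ratio of 1.76 to the mean of both neighbours (95% exact binomial interval 1.52 to 2.05). On 18 of the 19 autosomes the 6.5 to 7.0 kb class was above the mean of its neighbours. Leaving out replicate 2, 3 or 4 in place of replicate 1 gave 1207, 1114 and 1130 gaps, with ratios of 0.884, 0.983 and 0.862. With all 4 lists the ratio was 0.982, from 56 gaps against 66 and 48. This length class was chosen after the lengths had been seen.

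Replicates 2 to 4 each showed the same class on their own. These lists formed the 3-list set in which the class was picked, so this is no separate support for it. Between neighbouring peaks of replicate 2 there were 389 distances of 6.5 to 7.0 kb, a ratio of 1.25 to the neighbouring classes (interval 1.10 to 1.42). Replicate 3 had 669 and a ratio of 1.34 (1.21 to 1.48), and replicate 4 had 493 and a ratio of 1.29 (1.15 to 1.45). Replicate 1 alone had 119 and a ratio of 1.07, with an interval of 0.851 to 1.35 that overlaps those of the other 3. In the 4 H3K27me3 lists, with 20 to 229 distances in this class, the ratios were 0.8 and 1.07 without tamoxifen and 0.976 and 0.923 with it. All 4 H3K27me3 intervals include 1.

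Replicate 1 had peaks across many of the gaps that the other 3 lists left. Its peaks did not enter the choice of these 3-list gaps. It covered 1196 of the 3246 gaps of 1 to 7 kb from end to end (36.8%, 95% exact binomial interval 35.2 to 38.5), but only 25 of the 524 gaps of 7 to 9 kb (4.77%, 3.11 to 6.96). The share was highest at 6.5 to 7.0 kb, where 181 of 334 gaps were covered (54.2%, 48.7 to 59.6). It was 11.7% at 7.0 to 7.5 kb, 3.25% at 7.5 to 8.0 kb and 0.847% at 8.5 to 9.0 kb. In steps of 100 bp it was 65.1% at 6.8 to 6.9 kb, 50.7% at 6.9 to 7.0 kb, 29.7% at 7.0 to 7.1 kb and 6.45% at 7.1 to 7.2 kb. On all 19 autosomes replicate 1 covered a larger share of the 6.5 to 7.0 kb gaps (38.1% to 84.6%) than of the 7 to 9 kb gaps (0% to 40%).

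The other lists rarely did so when they were the one left out. In each of these cases replicate 1 helped to form the regions, so gaps that its peaks span were already joined. The shares are therefore not like for like with those of replicate 1. Replicate 2 covered 4 of 1207 gaps of 1 to 9 kb (0.331%), replicate 3 covered 31 of 1114 (2.78%) and replicate 4 covered 13 of 1130 (1.15%). None of these covered a gap of 7 to 9 kb, where replicate 1 covered 25. Replicate 1 also left short distances uncovered. Its own list had 2427 distances under 7 kb and 607 under 1 kb, and the shortest was 585 bp. Distances under 7 kb were 14.3% of its 17011, a smaller share than the 27.4%, 29.0% and 27.9% of replicates 2 to 4. Replicate 1 differed from the other H3K9me3 lists in peak width, peak number and version at once. The part of each in its coverage of 3-list gaps was not tested. The same count was made for each H3K27me3 list, over the gaps of 1.0 to 6.5 kb left by the other 3 H3K27me3 lists. Untreated replicate 1 (MACS2 2.0.10, median peak width 2511 bp) covered 39 of 598 (6.52%) and untreated replicate 2 (2.1.0, 784 bp) covered 5 of 311 (1.61%). Tamoxifen replicate 1 (2.0.10, 729 bp) covered 0 of 305 (upper bound 1.20%) and tamoxifen replicate 2 (2.1.0, 727 bp) covered 26 of 355 (7.32%). These shares come from unlike sets of gaps, and their relation to version, peak width or peak number was not tested. At 6.5 to 7.0 kb there were 25, 9, 7 and 11 such gaps in this order, and 0 were covered by the list left out.

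Many of the 3-list gaps near 7 kb are absent from the 1051, and spanning peaks of replicate 1 are not the only route. Replicate 1 had a peak in both flanks of 2228 of the 3770 gaps (59.1%). At 6.5 to 7.0 kb this held for 234 of 334 gaps (70.1%). A flank without a replicate 1 peak lacks 1 of the 4 lists that the choice of regions requires. Of the 3770 gaps, 1222 lie within 1 region of the 4 lists and 517 are identical to 1 of the 1051. Of the 334 gaps of 6.5 to 7.0 kb, 181 lie within 1 such region and 27 are identical to 1 of the 1051. The flanks of the 181 gaps that replicate 1 covered had a median of 1781 bp, and those of the other 153 had 2158.5 bp. An example, chosen as the covered gap with the widest narrower flank, is chr17:36144224-36151058 (6835 bp) between 3-list regions of 8285 and 9308 bp. A single replicate 1 peak of 17592 bp, chr17:36137629-36155220, spanned this gap. The 4 lists made it part of 1 region of 24428 bp, and no H3K27me3 peak lay in it.

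**Figure D2:**
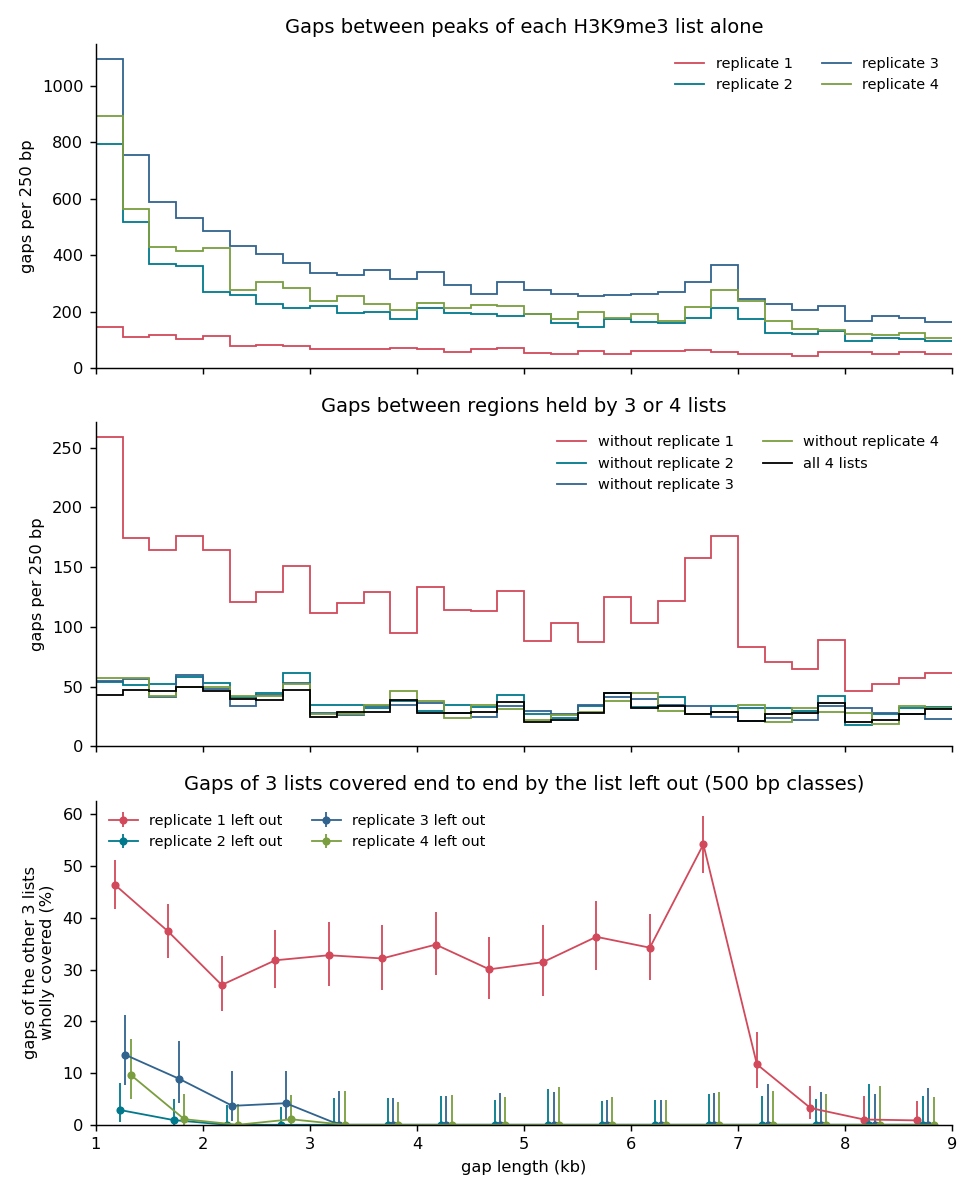
Top, number of distances between neighbouring peaks of each H3K9me3 list alone, per 250 bp of length. Middle, the same for gaps between regions held by all 4 lists (black) or by 3 lists, coloured by the list left out. Bottom, percent of 3-list gaps covered end to end by the list left out, in classes of 500 bp with 95% exact binomial intervals. Lengths of 1 to 9 kb are on the horizontal axis, and the set without replicate 1 rises at 6.5 to 7.0 kb, where replicate 1 covered 54.2% of the gaps.

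The regions beside the gaps had a median width between those beside gaps under 1 kb and of 9 to 17 kb. It was slightly above that of all regions beside no such gap. The 1051 gaps are bordered by 1933 regions, 169 of which have such a gap on both sides. Their median width was 3631 bp (quartiles 2474 and 6450 bp), against 3246 bp (2175 and 6141.5 bp) for the 8655 autosomal regions beside no such gap. Counted once per gap side, the median was 3620 bp on the left and 3738 bp on the right, against 3527 bp beside gaps of 9 to 17 kb and 4045 bp beside gaps under 1 kb. With replicate 1 left out, the median width of the bordering regions was 2117 bp. Widths under 2 kb were found in 14.0% of the bordering regions and in 20.3% of the others. Peaks of replicates 1 to 4 covered 74.1%, 57.1%, 70.7% and 61.7% of the bases of the bordering regions. In the other regions these shares were 76.8%, 50.6%, 63.8% and 55.6%, so replicates 2 to 4 covered more of the bordering regions and replicate 1 slightly less.

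The 2 flanks of a gap varied in how alike they were. The narrower flank had a median of 2698 bp and the wider one 5605 bp, and the median ratio of the wider to the narrower was 1.81. In 388 gaps the flanks were within 1.5 times of each other, and in 226 they differed by more than 3 times. The left flank was the wider one in 516 gaps and the right one in 535. Pearson's r between the log2 widths of the left and right flank was 0.0756 over the 1051 gaps. Both flanks were at least as wide as the gap in 354 gaps (33.7%), and both were narrower than the gap in 364 (34.6%). The median of the narrower flank was 2866.5, 2665.5, 2520 and 2628.5 bp for gaps of 1 to 3, 3 to 5, 5 to 7 and 7 to 9 kb. That of the wider flank was 5499, 5425, 5258 and 6275 bp, so that neither followed the gap length in order.

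**Figure D3:**
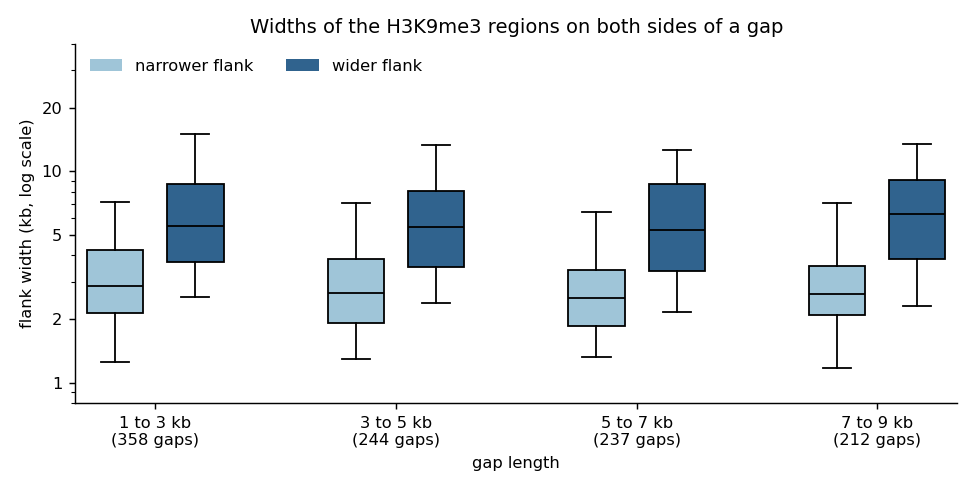
Widths of the narrower (light) and wider (dark) H3K9me3 region beside each gap, in kb on a log scale, for the 4 classes of gap length on the horizontal axis. Boxes show the median and quartiles and whiskers the 5th and 95th percentiles over gaps. The medians of the narrower flank lie between 2520 and 2866.5 bp in every class.

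Gaps of 5 to 7 kb between wide flanks were few. The one with the widest narrower flank was chr15:38399237-38404557 (5321 bp), between regions of 10896 and 10429 bp. Its distance in the lists of replicates 1 to 4 was 7838, 6999, 5601 and 6098 bp, and no H3K9me3 peak of any list lay inside. The next was chr3:93643192-93648212 (5021 bp), between 9308 and 15634 bp, with a replicate 3 peak over 615 bp of the gap. The third, chr6:37790696-37796531 (5836 bp), lay between 21484 and 8761 bp, with 226 bp in a replicate 3 peak. Among gaps of this class without any H3K9me3 peak, the next widest flanks were those of chr5:104366957-104373084 (6128 bp) with 8800 and 8563 bp, and of chr18:3053331-3059727 (6397 bp) with 14244 and 7857 bp. The latter had distances of 6915, 6660, 6458 and 6397 bp in the 4 lists, closer to each other than in most gaps. Over all lengths, the widest flanks belonged to chr10:82885752-82886838, a gap of 1087 bp between regions of 30228 and 63134 bp. Next was its neighbour chr10:82850564-82855523 across the region of 30228 bp, followed by chr6:129027160-129028290, a gap of 1131 bp between 15673 and 15224 bp.

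Most gaps stood alone, and some followed each other. The 1051 gaps formed 882 runs in which consecutive regions were all separated by gaps of 1 to 9 kb, namely 744 single gaps, 111 runs of 2, 25 of 3, 1 of 4 and 1 of 6. In all, 307 gaps (29.2%) lay in runs of 2 or more. The longest run, chr18:6338920-6403182, had 7 regions and 6 gaps of 1072 to 7384 bp in 64263 bp, of which 34333 bp were regions. The run of 4, chr8:4422899-4454961, had gaps of 1782 to 5185 bp in 32063 bp. The widest run of 3, chr6:37677510-37736681, spanned 59172 bp, and one of its flanks was 25227 bp wide.

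Peaks that belonged to no 4-list region lay inside many of the gaps. In 368 of the 1051 gaps (35%, 95% exact binomial interval 32.1 to 38.0) at least 1 list had such a peak, against 350 of the 701 longer gaps of 9 to 17 kb (49.9%, 46.2 to 53.7). A single list had it in 201 gaps, 2 lists in 93, 3 lists in 72 and all 4 in 2 gaps, without a place where the 4 overlapped in 1 region. Replicates 1 to 4 had a peak in 21, 143, 263 and 184 gaps (2.00%, 13.6%, 25% and 17.5%), and these peaks covered 0.464%, 2.08%, 4.54% and 2.87% of the gap bases. The order of replicates 2 to 4 is that of their peak numbers, and replicate 1 was lowest. In the 701 gaps of 9 to 17 kb the 4 lists covered 1.12%, 1.82%, 3.91% and 2.41% of the bases. In 1878 windows of the same lengths just beyond the outer borders, of which 2.24%, 10.5%, 17.5% and 12.5% held a peak, they covered 0.689%, 1.77%, 3.40% and 2.11%. Replicates 2 to 4 thus covered a larger share of the bases of the gaps than of either comparison stretch, and replicate 1 a smaller one, while the longer gaps held a peak more often in all 4 lists.

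The 466 merged peaks inside gaps were short, with a median of 538 bp, and 317 of them came from 1 list, 84 from 2 and 65 from 3. Their median distance to the nearest border was 822 bp, and 24.9% lay within 500 bp of it. The share of gaps with such a peak was 23.2%, 37.3%, 35.4% and 51.9% for gaps of 1 to 3, 3 to 5, 5 to 7 and 7 to 9 kb. The share of bases they covered was nearly level, at 6.97%, 7.44%, 7.40% and 7.54% for any list. In the 5 to 7 kb class replicates 1 to 4 covered 0.398%, 2.47%, 4.70% and 2.57%. A gap that such peaks fill from end to end is joined into 1 region and leaves the set, so these shares describe only the gaps that remained.

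The gap most filled by such peaks was chr12:18303967-18309435 (5469 bp). Replicates 2, 3 and 4 had peaks over 1348, 3234 and 2079 bp of it, together 74.7%, and replicate 1 had none. In chr8:94565658-94571593 (5936 bp) the same 3 lists covered 550, 2908 and 857 bp, together 66.7%. In chr15:14661666-14667213 (5548 bp) they covered 652, 2015 and 1812 bp, together 65.7%. All 3 gaps measured 5 to 6 kb and held no H3K27me3 peak. The 2 gaps with a peak of each list, named after their values were seen, were chr11:6701488-6705558 (4071 bp), with 1375, 263, 1631 and 1955 bp covered in replicates 1 to 4, and chr12:24457464-24465094 (7631 bp), with 1735, 181, 207 and 1015 bp.

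H3K27me3 was rare in the gaps with and without tamoxifen. Untreated replicates 1 and 2 had a peak in 3 and 7 of the 1051 gaps, and tamoxifen replicates 1 and 2 in 4 and 9. Replicate 2 was higher than replicate 1 in both groups, and the groups overlapped. In the same order the lists held 7041, 17094, 15116 and 22265 peaks, and the counts were not adjusted for this. The mean was 5.0 ± 2.83 gaps without and 6.5 ± 3.54 gaps with tamoxifen (SD, n = 2 each), and the difference of 1.5 gaps did not exceed the spread (two-sided exact permutation test, p = 0.667, where 2 against 2 cannot go below 0.333). H3K27me3 peaks covered 0.0686% and 0.127% of the gap bases without and 0.0835% and 0.132% with tamoxifen. The difference of 0.00986 percentage points had the same p of 0.667 in the exact permutation test. Without untreated replicate 1 the difference became -0.5 gaps and -0.0196 percentage points, and without tamoxifen replicate 2 it became -1.0 gaps and -0.0145 points. Either omission leaves the groups with unequal replicate numbers, and replicate 2 was the higher one in both groups. Within the same replicate number, which is also the same MACS2 version, tamoxifen minus untreated was 1 and 2 gaps and 0.0149 and 0.0048 percentage points for numbers 1 and 2 (exact sign-flip permutation test, p = 0.5, the smallest that 2 differences can give).

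Merged H3K27me3 regions were also classed by the lists that held them, gained being those of both tamoxifen lists and no untreated list. Over the genome 693 of 31723 H3K27me3 regions (2.18%) were gained, and 89 (0.281%) were lost in the reverse sense. A lost region needs a peak of untreated replicate 1, which had only 7041 peaks, against 15116 in the smaller tamoxifen list. Neither count was adjusted for this. Of the 16 H3K27me3 regions that overlapped a gap, 1 was gained, 0 were lost and 2 were held by all 4 lists. A count of 1 in 16 is too small to be set against the background share. The other 13 were held by single lists or by mixtures of both groups.

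All 4 H3K27me3 lists covered less of the gaps than of the remaining autosomal gaps. In the remaining gaps they covered 1.02%, 1.20%, 0.960% and 1.38% of the bases, in the order untreated 1 and 2, tamoxifen 1 and 2. This is 9.38 to 14.9 times the coverage in the 1051 gaps, in 4 of 4 lists (two-sided exact sign-flip permutation test, p = 0.125, the smallest that 4 lists can give). The gaps of 9 to 17 kb were much closer, with 0.0924%, 0.25%, 0.119% and 0.295%, which is 1.35 to 2.23 times the coverage in the 1051 gaps (exact sign-flip permutation test, p = 0.125). Coverage in the 4 lists was higher still in gaps of 17 to 50 kb (0.277% to 0.454%), of 50 to 200 kb (0.634% to 0.892%) and above 200 kb (1.05% to 1.5%). H3K27me3 coverage thus moved with the distance between H3K9me3 regions beyond the limit of 9 kb as well. The 1933 flanks were covered by 0.0219%, 0.140%, 0.0252% and 0.156% in the same order.

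**Figure D4:**
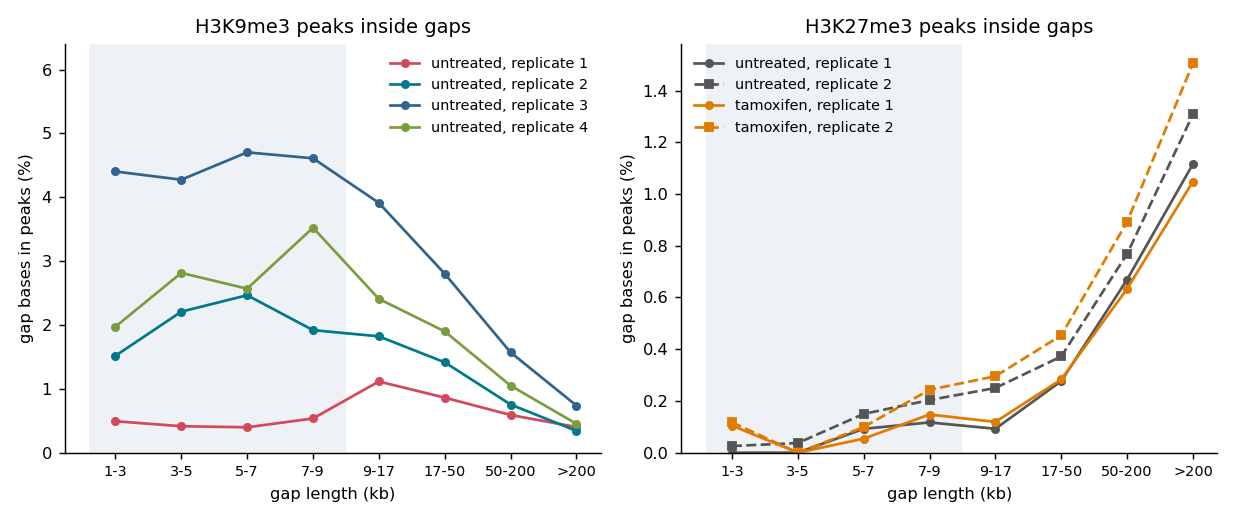
Percent of gap bases in H3K9me3 peaks outside the 4-list regions (left) and in H3K27me3 peaks (right), for classes of gap length in kb on the horizontal axis, with 1 line per list. The shaded classes of 1 to 9 kb are the gaps described. H3K9me3 coverage of replicates 2 to 4 is highest within 1 to 9 kb, and H3K27me3 coverage is highest above 200 kb, at 1.05% to 1.5%.

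H3K27me3 was found by at least 1 list in 14 gaps, by 1 list in 10, by 2 in 1, by 3 in 1 and by all 4 in 2. The gap chr3:108743253-108751946 (8694 bp) had 1990, 1670, 2140 and 1095 bp in H3K27me3 peaks of untreated 1 and 2 and tamoxifen 1 and 2. Its H3K27me3 peaks crossed the left border into an H3K9me3 region of 2780 bp. The gap chr1:6430983-6436464 (5482 bp), between H3K9me3 regions of 12177 and 1233 bp, had 375, 2147, 777 and 858 bp. In chr8:106827902-106836386 (8485 bp) the values were 0, 1607, 370 and 2095 bp. The gained region lay in chr7:134757921-134760414 (2494 bp), with 0 and 0 bp without and 746 and 649 bp with tamoxifen. It was the only gap with H3K27me3 in both tamoxifen lists and in neither untreated list.

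The 10 gaps with a single H3K27me3 list include 6 named by the rule. Of these, chr15:38399237-38404557, the gap of 5 to 7 kb with the widest flanks, had 948 bp in untreated replicate 1. Tamoxifen replicate 2 alone had 552 bp in chr17:30007357-30012770, 517 bp in chr17:46490080-46498927, 427 bp in chr1:75663462-75670728 and 185 bp in chr8:19784643-19785994. Untreated replicate 2 alone had 186 bp in chr4:121666478-121670432. The 14 gaps with H3K27me3 had a median length of 5448 bp and a median wider flank of 3531 bp, against 4369 and 5656 bp for the other 1037. In 3 of the 14 an H3K9me3 peak also lay inside the gap, and in 1 of them it overlapped the H3K27me3 peak.

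**Figure D5:**
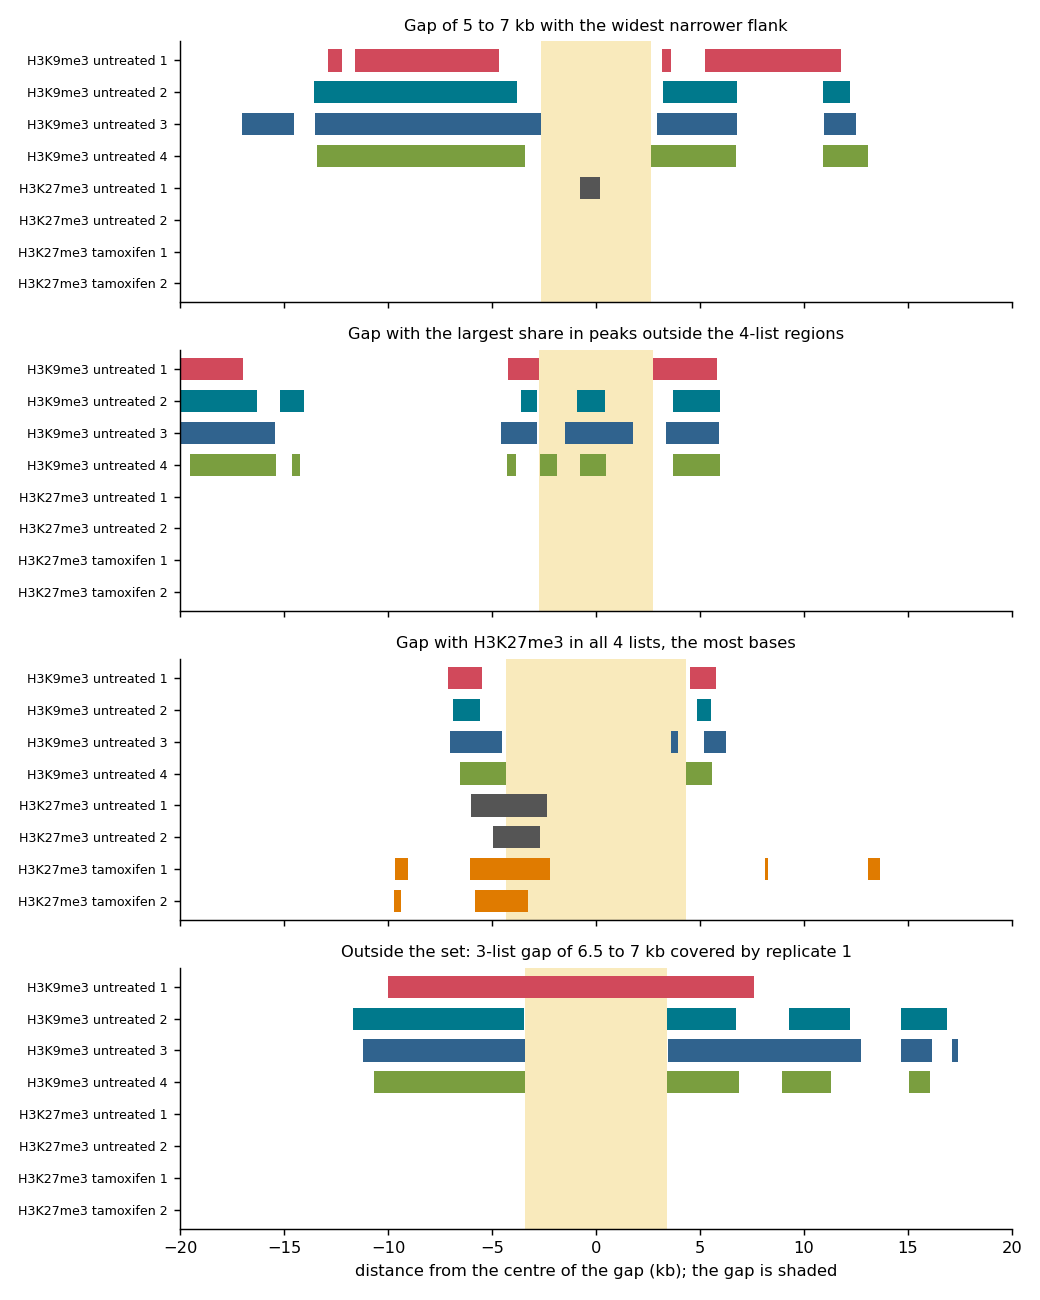
Peaks of the 8 lists (rows) around 4 gaps, by distance in kb from the centre of the gap, which is shaded. From the top, these are the gap of 5321 bp between regions of 10896 and 10429 bp, the gap of 5469 bp with 74.7% of its bases in H3K9me3 peaks, the gap of 8694 bp with H3K27me3 in all 4 lists, and the 3-list gap of 6835 bp that a replicate 1 peak of 17592 bp spans. In the first 3 panels no H3K9me3 list crosses the shaded gap, and in the last replicate 1 does.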

How the data were processed

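Per the labels' protocols, sonicated chromatin was precipitated with antibody against H3K9me3 or H3K27me3 and sequenced on an Illumina HiSeq. Each library has its own peak list, deposited by the authors as bare positions (chromosome, start, end) without a score. Per the submitters' processing notes, Bowtie 0.12.7 and MACS2 on build mm9 were used, with version 2.0.10 of MACS2 named for every replicate 1 and 2.1.0 for all other lists. How peaks were called (mode, threshold, control) is not given in the sources used here. Groups came from the titles, and the first library of each group, which has no number, was called replicate 1.

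Python 3.11.15 with NumPy 2.4.6, pandas 2.3.3 and SciPy 1.17.1 was used. An overlap of 1 bp sufficed for a list to hold a region or gap. Lengths were classed with the lower limit included. Random spacing is the exponential formula, with no resampling. Intervals are 95% exact binomial and cover counting error only. H3K27me3 was compared by two-sided exact permutation tests over libraries. No pair of lists shared more than 1 identical peak. The steps were tested on simulated lists. Positions count from 1. The gaps named in the text are the shortest and longest, those just outside the limits, the 3 with the widest narrower flank (all lengths, 5 to 7 kb, and 5 to 7 kb without a peak), up to 10 with H3K27me3 in the most lists, the 3 longest runs and the 3 most covered by peaks. The gaps and these rules were chosen with earlier results of these data known. Alternatives changed the merging distance, the smallest peak, the number of lists, the covered share, the window of the formula, the bases required and the lists used.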

Additional observations from a re-analysis of the deposited data

Results flagged for a closer look

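In 9 sets of 4 H3K9me3 values, 1 per list or per list left out, 4 had a highest value farther from the rest than Dixon's 95% critical value allows, each time at replicate 1. With independent values, chance flags about 1 in 20 groups. Here the values within each flagged set share lists, and the 4 sets share the same lists, so that rate does not hold. The flags only mark values for a closer look and are no test of the H3K9me3 description. Without replicate 1 the other 3 lists left 3770 gaps of 1 to 9 kb, against 1114 to 1207 without any other list. Replicate 1 covered 32.4% of these gaps from end to end, and 36.8% of those of 1 to 7 kb. The ratio of gaps of 6.5 to 7.0 kb to the neighbouring classes was 1.76 without replicate 1. Replicate 1 differs from the other lists in peak width, peak number and version of the peak caller, and their part in these values was not tested.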

How the results depend on the processing

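The number of gaps was 2858 with regions of at least 3 lists and 1114 to 3770 with 1 list left out, and that of 5 to 7 kb was 633 and 246 to 962. Leaving out 1 list gave 21.8% to 25.5% of gaps in the 5 to 7 kb class, a ratio to its neighbours of 1.00 to 1.31, and a ratio to random spacing of 2.67 to 2.97. It also gave a median flank of 2117 to 3397 bp, a share of gaps with further H3K9me3 peaks of 24.0% to 32.3%, and a 6.5 to 7.0 kb ratio (added after seeing the data) of 0.862 to 1.76. In each of these 8 measures, leaving out replicate 1 moved the value most. The share with further peaks counts only the 3 lists in use, whereas the main result counts 4. That alone can lower this share. Peaks of at least 500 bp gave 3.09, 3931 bp and 39.9% for the ratio to random spacing, the flank and the share with further peaks, and regions of at least 3 lists gave 2.25, 2576 bp and 25.2%. Windows of 5 Mb gave a ratio of 2.18. For H3K27me3, tamoxifen minus untreated was -1.0 to 4.0 gaps and -0.0196 to 0.0393 percentage points without 1 H3K27me3 list, and 0.5 to 7.0 gaps and -0.00126 to 0.0174 points without 1 H3K9me3 list. It was negative without untreated replicate 1 (-0.5, -0.0196) or tamoxifen replicate 2 (-1.0, -0.0145), and for bases without H3K9me3 replicate 3 (-0.00126). With the replicate number as a block the differences were 1.5 gaps and 0.00986 points (exact sign-flip permutation test, p = 0.5). The numbers are not stated to pair libraries. The lowest p over the settings was 0.333 (exact permutation test), with at least 200 bp of peak required in a gap. The difference was then 2.5 gaps, and both tamoxifen lists lay above both untreated lists. This p is the smallest that 2 against 2 can give. Of 1051 gaps, 986 were also gaps with regions of at least 3 lists and 775 with peaks of at least 500 bp. Fewer kept the same start and end when 1 list was left out. These were 517, 753, 419 and 638 without H3K9me3 replicates 1, 2, 3 and 4. The lists carry no depth, so a gap without a peak may hold signal below the callers' threshold.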
